A study of Arabidopsis thaliana with 4 samples.

Results

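The plastid genome of Arabidopsis thaliana encodes the core of its own RNA polymerase and part of its own ribosome. The genes described here are those the platform annotation pairs with a single plastid gene whose symbol starts with rpo, rpl, rps or ycf, or is accD, clpP or matK, leaving out 7 names that the mitochondrial genome also uses. It gave 21 genes, each with 1 probe set, of 22746 probe sets that were not controls. They were 4 subunits of the RNA polymerase, 6 proteins of the small ribosomal subunit, 6 of the large subunit, and accD, clpP, matK, ycf3 and ycf4.

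Seeds of the Ler-0 background (Landsberg erecta, stock code NW20) were held for 96 h in darkness at 4 °C or at 22 °C. There were 2 arrays at each temperature, called A and B after the last letter of the sample titles. All samples are labelled as dry seeds, although the treatment notes describe the incubation. Biotin-labelled total RNA was measured on Affymetrix arrays, and the values are MAS5 signals, here scaled so that each array had a trimmed mean of 500. Where 2 signals of a temperature are given, array A stands before array B. The labels name no separate seed batches for the 2 arrays of a temperature, and the p-values below therefore reflect the spread among these 4 arrays alone, which could be technical.

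Plastid genes are read by 2 kinds of polymerase. The bacterial-type enzyme is built from the subunits encoded by rpoA, rpoB, rpoC1 and rpoC2, and nuclear sigma factors guide it to promoters, many of them of photosynthesis genes. A phage-type enzyme encoded in the nucleus transcribes the rpoB gene cluster and contributes to transcripts of accD, clpP and several ribosomal protein genes. The plastid ribosome resembles that of bacteria and mixes subunits made in the plastid with others imported from the cytosol. Before germination the plastids of a seed are small and undeveloped.

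Most of the 21 genes had lower signals at 4 °C than at 22 °C, and none passed the test across the whole array. The log2 fold change (4 °C minus 22 °C, on log2(signal + 32)) was below 0 for 20 of 21 genes, against 55.3% of the 15847 probe sets tested. Its median was -1.02, against -0.13 over all probe sets tested and -0.045 over those whose mean signal reached 200. In limma's test with Benjamini-Hochberg adjustment, 0 of 21 genes were called, against 5.05% of all probe sets (2.34% lower and 2.71% higher at 4 °C). With all 4 arrays and no block, the lowest adjusted p among the members was 0.0875, for rpl22. With the replicate letter as a block, rpl14, rpl22 and rps19 were called lower, against 10.2% of all probe sets lower and 7.93% higher. Leaving out 22 °C A gave a median log2 fold change of -0.58 over the members, and leaving out 22 °C B gave -1.22. With all 4 arrays, at an unadjusted p under 0.05, 5 genes were lower and 0 higher, against 14.0% of all probe sets lower. All 21 passed the filter on low signal, with mean signals between 271.3 and 8559.

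Both 4 °C arrays lay below both 22 °C arrays for 13 of 21 genes, against 31.4% of all probe sets, and above them for 0, against 25.7%. The temperature difference was larger than the difference between A and B at either temperature for 12 genes, all of them lower at 4 °C, against 22.0% of all probe sets. Neighbouring plastid genes are often copied into the same transcript, so these counts are not counts of independent genes. The standard error of the fold change ran from 0.436 to 0.909, and the smallest absolute log2 fold change called anywhere on the array was 1.81, while rpl14, the member furthest from 0, had -1.84. In bulk seed RNA, fewer cells of a type and less RNA per cell cannot be told apart. How the RNA was primed for labelling is not given in these sources, and most plastid transcripts carry no stable poly(A) tail, so how the signals follow the amount of transcript was not tested.

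**Figure D1:**
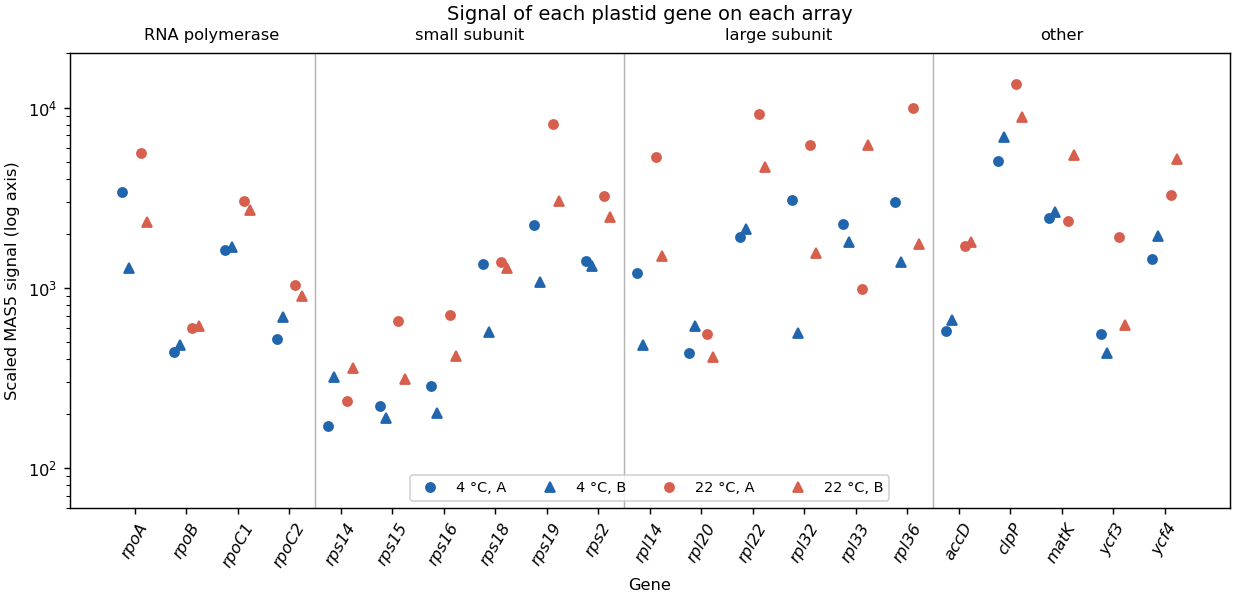
Scaled MAS5 signal (log axis) of each of the 21 plastid genes on the 4 °C arrays (blue) and 22 °C arrays (red), with circles for array A and triangles for array B, grouped by role. Both 4 °C points lie below both 22 °C points for 13 genes, and levels of different genes cannot be compared because each comes from its own probes.

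Of the RNA polymerase genes, all but rpoA had close replicates at both temperatures. rpoB encodes the beta subunit of the catalytic core, and its signal was 438.3 and 480.9 at 4 °C, against 598.4 and 611.1 at 22 °C. Both 4 °C arrays were lower, and the log2 fold change was -0.37 (SE 0.436; limma adjusted p = 0.64). rpoC1, for the beta-prime subunit, had 1614 and 1679 at 4 °C, against 3035 and 2715 at 22 °C. The groups stood clear of each other, and the log2 fold change was -0.79 (SE 0.443; limma adjusted p = 0.312). rpoC2, whose product completes the beta-prime part of the enzyme, had 522 and 690.3 at 4 °C, against 1037 and 903.4 at 22 °C. Again the groups did not overlap, and rpoC2 had a log2 fold change of -0.66.

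rpoA, for the alpha subunit on which the core assembles, lies apart from the other polymerase genes, beside ribosomal protein genes. It had 3384 and 1279 at 4 °C, against 5606 and 2316 at 22 °C. Array A was the higher at both temperatures, and the groups overlapped, since 4 °C A exceeded 22 °C B. The log2 fold change was -0.78 (SE 0.648; limma adjusted p = 0.497). Leaving out 4 °C A gave -1.47 and leaving out 4 °C B gave -0.091, while without 22 °C A it was -0.15. Over the 4 polymerase genes the median was -0.72, and -0.48 without 22 °C A.

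All 6 small-subunit genes had log2 fold changes below 0, against 55.3% of all probe sets. Both 4 °C arrays lay below both 22 °C arrays for 4 of them, against 31.4% of all probe sets. rps19, for a protein of the head of the small subunit, had 2240 and 1082 at 4 °C, against 8112 and 3038 at 22 °C. Every 4 °C value was below every 22 °C value, and the log2 fold change was -1.65 (SE 0.624; limma adjusted p = 0.15). For rps19, leaving out 22 °C A gave -0.95 and leaving out 22 °C B gave -2.36. rps2, which lies next to the polymerase genes rpoC2, rpoC1 and rpoB, had 1403 and 1318 at 4 °C, against 3216 and 2472 at 22 °C. The replicates were close at 4 °C, and the log2 fold change was -1.04 (SE 0.453; limma adjusted p = 0.203).

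rps15, whose product is dispensable in tobacco plastids, had 220.8 and 190.3 at 4 °C, against 653.9 and 313.1 at 22 °C. The 22 °C arrays differed from each other by almost as much as the temperatures did, and the log2 fold change was -1.04 (limma adjusted p = 0.238). For rps15, leaving out 22 °C A gave -0.54 and leaving out 22 °C B gave -1.53. rps16 had 284.9 and 201.9 at 4 °C, against 708.3 and 417 at 22 °C, a log2 fold change of -1.08 without overlap. rps18 and rps14 overlapped between the temperatures. For rps18 the signals were 1348 and 569.7 at 4 °C, against 1398 and 1286 at 22 °C, so that only 4 °C B stood lower. The log2 fold change of rps18 was -0.59, and leaving out 4 °C B gave 0.0077. For rps14, which lies beside the photosystem I genes, the signals were 170.2 and 318.4 at 4 °C, against 235.8 and 360.8 at 22 °C. Array B was the higher at both temperatures. The log2 fold change of rps14 was -0.29, and leaving out 4 °C A gave 0.11. The median over the small-subunit genes was -1.04, and -0.64 without 22 °C A.

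The large-subunit genes had both the member with the lowest fold change and the 1 member above 0. rpl14 encodes a protein at the face of the large subunit that meets the small one. It had 1205 and 480.2 at 4 °C, against 5301 and 1497 at 22 °C. The groups did not overlap, and 4 °C A lay just under 22 °C B. The mean 4 °C signal was 0.248 times the mean 22 °C signal (842.5 ± 512.4 against 3399 ± 2690, SD, n = 2), and the log2 fold change was -1.84 (SE 0.721; limma adjusted p = 0.162). For rpl14, leaving out 22 °C A gave -0.94 and leaving out 22 °C B gave -2.74.

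rpl22, for a protein that lines the exit tunnel for new polypeptides, had 1913 and 2112 at 4 °C, against 9207 and 4657 at 22 °C. Its 4 °C replicates were close together and well below both 22 °C arrays. The log2 fold change was -1.69 (SE 0.496; limma adjusted p = 0.0875). rpl36, for a very small protein that tobacco plastids can lack, had 2999 and 1396 at 4 °C, against 9989 and 1752 at 22 °C. The lower mean at 4 °C rested on 22 °C A, whose value was 5.7 times that of 22 °C B. The log2 fold change of rpl36 was -1.02, but leaving out 22 °C A gave 0.22 and leaving out 22 °C B gave -2.27.

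rpl32 lies in the small single-copy region of the plastid genome. It had 3054 and 562.2 at 4 °C, against 6233 and 1563 at 22 °C. Its replicates differed by more than the temperatures, with A higher than B by 2.38 at 4 °C and by 1.97 at 22 °C on the log2 scale, and the log2 fold change was -1.22 (SE 0.909; limma adjusted p = 0.446). The value for rpl32 rested on single arrays, since leaving out 4 °C A gave -2.41 and leaving out 4 °C B gave -0.034, while without 22 °C A it was -0.24. rpl33, which tobacco plants need for full recovery from chilling, had 2259 and 1783 at 4 °C, against 986.5 and 6162 at 22 °C. Both 4 °C values lay between the 22 °C replicates. The log2 fold change was -0.30 (SE 0.805; limma adjusted p = 0.858), and leaving out 22 °C A gave -1.60, leaving out 22 °C B 1.0.

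rpl20, a gene essential in tobacco, had 434 and 615 at 4 °C, against 552.4 and 411.4 at 22 °C. The temperatures were interleaved, and the log2 fold change was 0.11 (SE 0.461; limma adjusted p = 0.913), with -0.09 without 22 °C B and -0.13 without 4 °C B. Over the 6 large-subunit genes the median was -1.12. It ranged with the array left out from -2.19, without 22 °C B, to -0.31, without 4 °C B, and was -0.59 without 22 °C A.

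The remaining members serve other tasks of the plastid. accD encodes the plastid-made subunit of acetyl-CoA carboxylase, the first enzyme of fatty acid synthesis. It had 576.7 and 662.7 at 4 °C, against 1713 and 1795 at 22 °C. No other member combined so large a temperature difference with so small a spread within both temperatures. The mean was 619.7 ± 60.8 in 4 °C seeds and 1754 ± 57.6 in 22 °C seeds (SD, n = 2), and the log2 fold change was -1.46 (SE 0.45; limma adjusted p = 0.0983).

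clpP, for the plastid-made proteolytic subunit of the CLP protease, had 5066 and 6871 at 4 °C, against 13492 and 8809 at 22 °C. The groups did not overlap, and the log2 fold change was -0.88 (SE 0.438; limma adjusted p = 0.257). ycf4, which assists assembly of photosystem I, had 1450 and 1948 at 4 °C, against 3267 and 5195 at 22 °C. Array B was the higher at both temperatures, and the log2 fold change was -1.28 (SE 0.48; limma adjusted p = 0.149). ycf3, another assembly factor of photosystem I, had 553.4 and 435.6 at 4 °C, against 1921 and 619.6 at 22 °C. The 22 °C replicates were further apart than the temperatures, and the log2 fold change was -1.11 (SE 0.607; limma adjusted p = 0.303). For ycf3, leaving out 22 °C A gave -0.32 and leaving out 22 °C B gave -1.90.

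matK, for the maturase that helps to splice plastid introns, had 2426 and 2630 at 4 °C, against 2344 and 5485 at 22 °C. Only 22 °C B stood apart. The log2 fold change of matK was -0.50 (SE 0.534; limma adjusted p = 0.603), and 0.11 without 22 °C B. Over these 5 genes the median was -1.11, with a range of -1.19 to -1.07 over the arrays left out in turn.

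**Figure D2:**
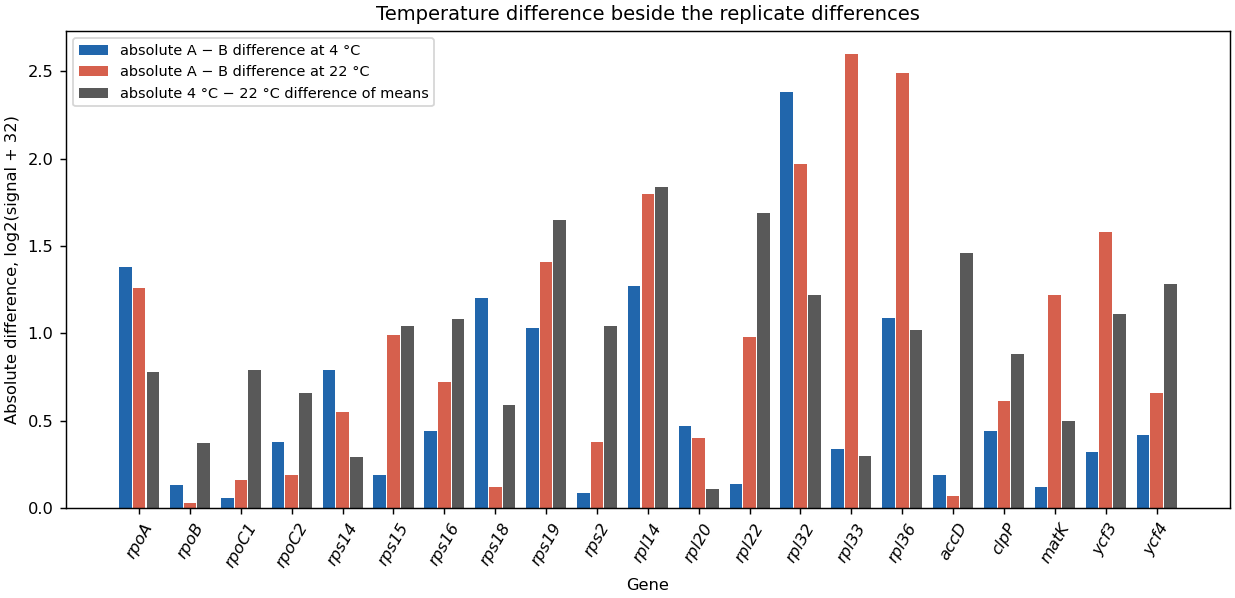
For each of the 21 genes, bars from 0 give the absolute difference between arrays A and B at 4 °C (blue) and at 22 °C (red) and the absolute difference between the 4 °C and 22 °C means (grey), all on log2(signal + 32). The grey bar is the tallest of the 3 for 12 genes, among them accD and rpl22, and is far below the red one for rpl33 and rpl36.

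Replicate differences were also set against the position of each gene. In RefSeq's order of plastid genes (assembly TAIR10.1), rpoA, rpl36, rpl14, rpl22 and rps19 belong to 1 unbroken run of ribosomal protein and polymerase genes. At 22 °C array A exceeded array B for all 5 of them, by a median of 1.41 on the log2 scale, and at 4 °C for 4 of 5, by a median of 1.09. The exception was rpl22, with A minus B at -0.14 at 4 °C. The run of rps2, rpoC2, rpoC1 and rpoB had far closer replicates: A minus B lay between -0.38 and 0.088 at 4 °C and between -0.029 and 0.38 at 22 °C. All 4 of its genes were lower at 4 °C without overlap, against 31.4% of all probe sets, with a median log2 fold change of -0.73. That median was -1.65 in the run from rpoA to rps19 and -0.45 in the run of rpl33, rps18, rpl20 and clpP. In the latter run 3 of 4 genes overlapped, against 6800 of the 15847 probe sets tested. The difference between runs was not tested.

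Over the 21 genes the same letter was the higher at both temperatures for 15, against 55.2% of all probe sets. The same held for 31 of 43 plastid photosynthesis genes and for 9 of 9 mitochondrial-genome genes tested. Across the 21 genes, which share the 4 arrays and are not independent, A minus B at 4 °C correlated with A minus B at 22 °C with r = 0.56. It did so with r = 0.21 across all probe sets tested, 0.83 across the photosynthesis genes and -0.0091 across the mitochondrial-genome genes. The SD of A minus B over the members was 0.80 at 4 °C and 1.16 at 22 °C, against 0.65 at 4 °C and 1.10 at 22 °C over all probe sets. Control ratios used as measures of RNA integrity also differed between the letters, but in opposite directions. The ratio of the 3-prime to the 5-prime GAPDH control probe set was 1.01 and 0.639 at 4 °C, against 1.46 and 0.68 at 22 °C. There A was the higher at both temperatures. For ubiquitin the ratio was 1.02 and 1.41 at 4 °C, against 1.3 and 1.39 at 22 °C, with B the higher at both. Their part in the results was not tested.

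**Figure D3:**
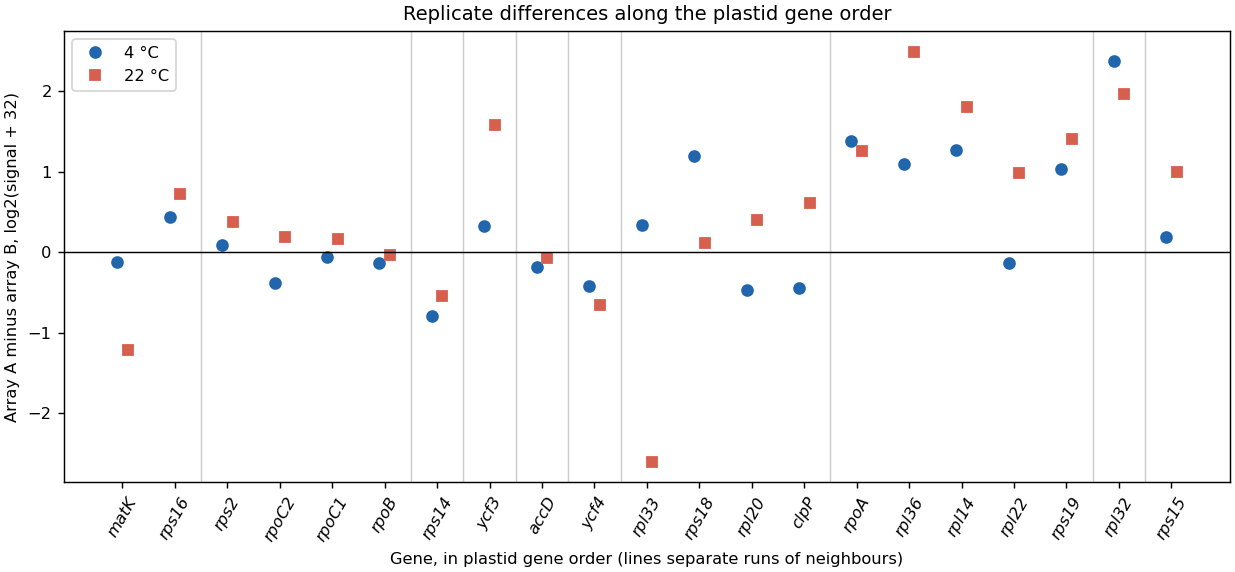
Array A minus array B on log2(signal + 32) for the 21 genes in plastid gene order, at 4 °C (blue circles) and 22 °C (red squares), with lines between runs of neighbouring genes. Points of the run from rpoA to rps19 lie above 0 except rpl22 at 4 °C, and those of the run from rps2 to rpoB lie near 0.

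Plastid genes for photosynthesis, which code for the photosystems, the cytochrome complex, the ATP synthase, the NDH complex and the large subunit of Rubisco, were set beside the members. Of these 43 genes 40 had a log2 fold change below 0, against 55.3% of all probe sets, with a median of -0.97. Both 4 °C arrays lay below both 22 °C arrays for 25 of them, against 31.4% of all probe sets. Of the 43, psbE and psbF, both for cytochrome b559 of photosystem II, were called, against 2.34% of all probe sets lower, with log2 fold changes of -2.54 and -2.20 (limma adjusted p = 0.0363 and 0.0416). Both calls ended with a pseudocount of 100, with no filter and without either 4 °C array. The count called lower was 10 with the replicate block, against 10.2% of all probe sets lower. It ran from 3 to 5 with a pseudocount of 0, quantile normalization or a filter at 200. Those settings called 6.52%, 5.33% and 11.2% of all probe sets in either direction. With either 22 °C array left out, more of the 43 and more of all probe sets were called. The spread then came from the 4 °C pair alone. With 22 °C A left out the median was -0.58 for the 21 members and -1.17 for the photosynthesis genes. With 22 °C B left out it was -1.22 for the members and -0.80 for the photosynthesis genes. No test of the difference between these sets was run, and both share the same arrays.

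Transcripts of the mitochondrial genome, matched by symbol, gave 9 tested genes of 11. None was called, against 5.05% of all probe sets, and 7 were below 0, against 55.3%. For 2 of the 9 both 4 °C arrays lay below both 22 °C arrays, against 31.4% of all probe sets. The median log2 fold change of the 9 genes was -0.31, which was -0.013 after quantile normalization. Leaving out 22 °C A gave 0.19, and leaving out 22 °C B gave -0.81. With the replicate block 1 was called lower, against 10.2% of all probe sets.

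Nuclear genes for partners of the same machines were counted from fixed lists. Nuclear-encoded plastid ribosomal proteins gave 9 measured genes of 39 loci listed, of which 0 were called, against 5.05% of all probe sets. All 9 overlapped between the temperatures, as did 6800 of the 15847 probe sets tested. Their log2 fold changes ran from -0.18 to 0.51 for these 9 genes, with a median of -0.0058. All 9 were lower on A than on B at 22 °C and higher on A than on B at 4 °C. At 22 °C their A minus B had a median of -1.54, whereas the 12 plastid-encoded ribosomal protein genes had 0.85, with 10 of 12 higher on A. The nuclear set's median depended on the 22 °C array used: leaving out 22 °C A gave -0.77 and leaving out 22 °C B gave 0.90. The member with the largest absolute value was AT5G65220, for a protein of the L29 family of the large subunit. It had 3527 and 2330 at 4 °C, against 1371 and 2906 at 22 °C, and did not pass (limma adjusted p = 0.597).

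Nuclear genes listed for the CLP protease system, in which the clpP product works, gave 6 measured genes. The list of 19 loci also held acetyl-CoA carboxylase subunits. All 6 measured CLP genes had log2 fold changes above 0, with a median of 0.76. Both 4 °C arrays lay above both 22 °C arrays for 4 of them, against 25.7% of all probe sets. With all 4 arrays 0 were called, against 5.05% of all probe sets. The median ran from 0.71 without 22 °C A to 1.04 without 22 °C B. Without 22 °C A, and also without 4 °C A, 1 of the 6 was below 0. The largest was AT4G25370, for an accessory subunit of the CLP core, with 904 and 986.1 at 4 °C, against 307.1 and 520.3 at 22 °C. The fold change of this gene was 1.17 on a log2 scale (SE 0.476; limma adjusted p = 0.174), opposite in sign to that of clpP.

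Of 22 loci listed for nuclear partners of plastid transcription, 1 was measured. This was AT5G15700, a phage-type RNA polymerase of mitochondria and plastids. Its signal was 597.5 and 667.8 at 4 °C, against 331.4 and 110 at 22 °C. Both 4 °C arrays were higher, and the log2 fold change was 1.55 (SE 0.55; limma adjusted p = 0.133). Leaving out 22 °C A gave 2.22 and leaving out 22 °C B gave 0.87. AT5G15700 was called higher with the replicate block, as were 7.93% of all probe sets.

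**Figure D4:**
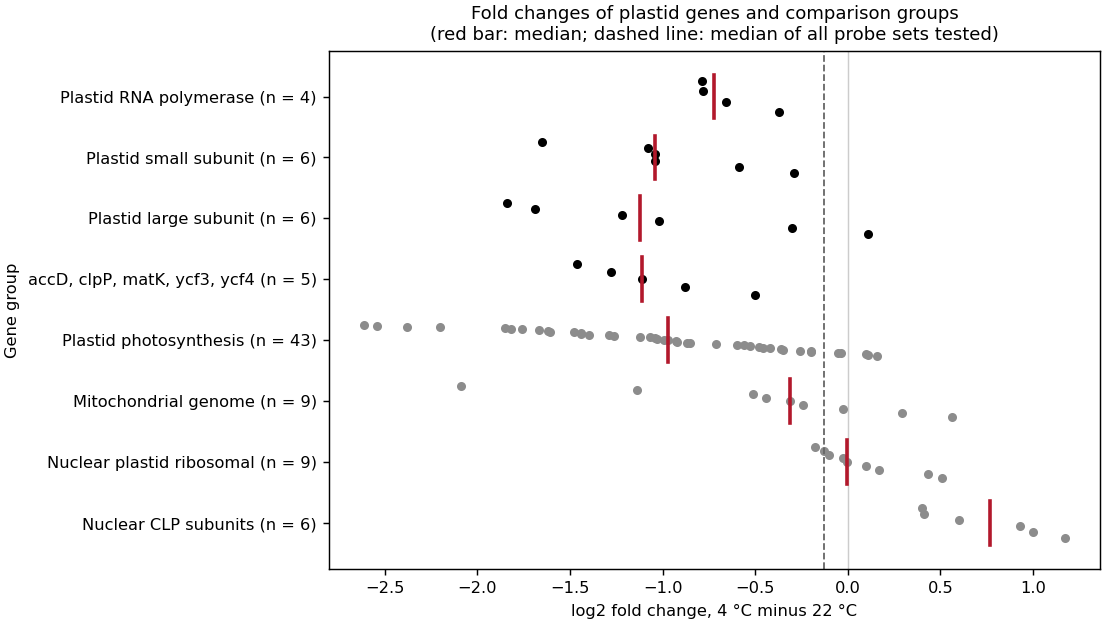
Log2 fold change (4 °C minus 22 °C) of each gene in the 4 role groups of the 21 plastid genes (black) and in the comparison groups (grey), with red bars at group medians and a dashed line at -0.13, the median of all probe sets tested. Medians of the plastid groups lie between -1.12 and -0.72, those of the nuclear plastid ribosomal proteins and the listed CLP genes (labelled Nuclear CLP subunits) at -0.0058 and 0.76.

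As a check of the labelled tissue, 2 of 13 listed seed markers were measured. The late embryogenesis gene M10 had 14071 and 15986 at 4 °C, against 13531 and 10789 at 22 °C, so seed transcript was present on every array. The oleosin gene OLEO3 had 348.2 and 658.2 at 4 °C, against 1305 and 1838 at 22 °C. Of 12 green tissue markers 1 was measured, the nuclear antenna gene LHCB4.1, which fell by 3.76 on the log2 scale (limma adjusted p = 0.0279), a call that ended with no filter and without either 4 °C array. Its part in the plastid result was not tested.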

How the data were processed

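The authors deposited linear intensities, 1 for each probe set, which come from MAS5 per the submitters' processing notes. Detection calls, background handling and genome build are not given in these sources. Each array, whose 2% trimmed mean was 100 as deposited, was scaled to 500. The 64 control probe sets were left out, and 15847 of 22746 others had a mean of at least 64. limma 3.58.1 in R 4.3.3 (lmFit, eBayes with trend, threshold 0.05) was fitted to log2(signal + 32) without covariates over all of them, and was tested on simulated data. Precision is limited by the number of arrays.

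Gene names came from the platform annotation and the RefSeq table of TAIR10.1. A probe set paired with 1 gene was required (13513, of which 13436 matched RefSeq), so plastid genes present in 2 copies were not analysed here, and 3 genes with names shared with the mitochondrion were not counted as members. A gene with several probe sets was represented by the one with the highest mean. Mitochondrial gene IDs were not in the RefSeq table, so symbols were matched. All members are named, with 1 member of each partner list, the largest in absolute value where none passed. The members and lists were chosen with earlier results of these data known. Alternatives covered the pseudocount, filter, normalization, variance model, replicate block, averaged probe sets and each array left out.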

Additional observations from a re-analysis of the deposited data

How the results depend on the processing

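Of 294 values of single members under the alternatives, 275 kept their direction and their side of the threshold, 12 passed it and 7 changed sign. No member passed with pseudocounts of 0 or 100, either other filter, quantile normalization, median centring, the other variance models or averaged probe sets, where 20 of 21 stayed below 0. The lowest adjusted p then ran from 0.0584 to 0.124. With the replicate letter as a block, 3 members passed (rpl14, rpl22 and rps19, adjusted p = 0.0196, 0.0278 and 0.0297), beside 10.2% of all probe sets lower and 7.93% higher; no label pairs the arrays by letter. With 1 array left out, 0 to 6 passed: accD, ycf4 and rpl33 without 22 °C A, rpl14, rpl22, rpl36, rps15, rps19 and ycf3 without 22 °C B, and 0 without either 4 °C array. The spread then came from 1 pair of arrays, and the lone array was assumed to vary like that pair. The members' median, -1.02, ranged from -1.22 to -0.58 with an array left out. The sign changed for matK (-1.11 to 0.11), rpl33 (-1.60 to 1.0), rpl36 (-2.27 to 0.22), rpl20 (-0.13 to 0.35), rps14 (-0.68 to 0.11) and rps18 (-1.19 to 0.0077), and the cause was not tested. Over all probe sets 801 were called, against 226 with the pseudocount at 100, 1266 under a filter at 200, 2 with no filter and 2879 with the block, and 1 to 4142 with an array left out. Median centring moved the median of all probe sets from -0.13 to 0.03, and that of the members to -0.87.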

Other observations

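The plastid genome also encodes ccsA, for cytochrome c assembly, and cemA, for an envelope membrane protein, which belong to neither set above. The signal of ccsA was 1105 and 1191 at 4 °C, against 1805 and 1825 at 22 °C. For cemA it was 1745 and 2499 at 4 °C, against 4505 and 5295 at 22 °C. Both genes were lower on both 4 °C arrays, with log2 fold changes of -0.65 and -1.21, and neither passed (limma adjusted p = 0.412 and 0.147). The 3 plastid genes left out for a name shared with the mitochondrion had log2 fold changes from -1.75 to -1.46, and 0 of 3 passed.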
